A study of Rattus norvegicus with 23 samples.

Results

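The genes described here are the fibroblast growth factors (FGF), platelet-derived growth factors (PDGF), vascular endothelial growth factors (VEGF) and insulin-like growth factors (IGF) of the rat, with their receptors and the IGF-binding proteins. Members were chosen by gene symbol alone: Fgf or Fgfr with a number, symbols that begin with Pdgf or Vegf, and Flt1, Flt4, Kdr, Igf1, Igf2, Igf1r, Igf2r and Igfbp1 to Igfbp7. There were 50 members among the 16544 genes named on the array, namely 21 FGF ligands, 4 FGF receptors, 4 PDGF ligands, 3 PDGF receptors, 4 VEGF ligands, 3 VEGF receptors, 2 IGF ligands, 2 IGF receptors and 7 IGF-binding proteins. Of 51 such symbols in the RefSeq gene table, Fgf4 was the only symbol not matched to a probe.

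RNA was taken from 6 regions of untreated male Wistar rats and hybridized to 23 single-color Agilent arrays. There were 4 arrays each of the left atrium (LA), the left ventricle (LV), the sinoatrial node (SA), the pulmonary vein (PV) and the pulmonary artery (PA), and 3 of the right ventricle (RV), from its free wall. The study used 12 rats of 8 to 11 weeks; LA was the part next to the pulmonary vein, the LV mass of a heart was cut into 3 pieces that served as samples, and each SA sample pooled 2 rats. The labels do not tie arrays to animals, so the p-values below measure the spread between these samples, which may in part be technical.

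PDGF, VEGF and most FGF are secreted proteins that bring together receptor tyrosine kinases on the surface of neighboring cells. In the vessel wall they set the growth, migration and survival of endothelial cells, smooth muscle cells and pericytes. VEGF is made by cardiac myocytes among other cells and is read by receptors that are found mainly on endothelium. IGF ligands act on growth and metabolism through the IGF-1 receptor, and the IGF-binding proteins carry them, hold them in the matrix and limit their access to that receptor.

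Values are log2(normalized signal + 1). On this scale, differences of dim genes depended on the background correction and on the floor set for dim arrays. Each array had 1 measurement per gene, from its brightest probe. By the scanner's own call, 58.6% to 79.8% of all probes were well above the local background, with the lower values in the second row of a slide, and no spot was saturated. Of the 50 members, 29 were well above background on all 23 arrays, 18 on some arrays and 3 (Fgf5, Fgf14 and Fgf19) on none. The tissue labels were set against marker genes. Atrial myocyte markers summed to 1373200 to 1673600 normalized units in LA against 298901 to 423234 in LV, pacemaker markers to 6951 to 8011 in SA against 2537 to 3327 in LA, and smooth muscle markers to 480268 to 569400 in PA against 26899 to 32374 in LA. PA also held RNA of the contractile genes that all cardiac myocytes share, at 110704 to 152166 units against 1387500 to 1444610 in PV, with 5 of 6 of these genes well above background on every PA array. In such bulk tissue, fewer cells of a type and less RNA per cell cannot be told apart.

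The promoters of 4 members are shown because these genes had the largest differences of the set, in PA (Fgfr2 and Igfbp2) and in the ventricle (Fgf9 and Fgf16). They were picked after the values were seen. The order in the ventricle depends on the background correction. With normexp background correction Fgf9 differed by 1.27 and Fgf16 by 1.46. The lowest ventricular difference of Fgf18 under any alternative was 1.95. Each line gives the 250 bases before the transcript start in the RefSeq promoter table (build GRCr8), 5′ to 3′ on the strand of the gene, with matches to TATAAA or to GGGCGG in capitals.
Fgfr2: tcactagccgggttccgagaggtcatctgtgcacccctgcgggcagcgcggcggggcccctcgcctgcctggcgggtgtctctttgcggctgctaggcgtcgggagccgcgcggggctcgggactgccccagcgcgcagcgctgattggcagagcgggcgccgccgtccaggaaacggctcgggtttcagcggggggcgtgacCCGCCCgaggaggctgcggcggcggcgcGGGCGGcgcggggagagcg
Igfbp2: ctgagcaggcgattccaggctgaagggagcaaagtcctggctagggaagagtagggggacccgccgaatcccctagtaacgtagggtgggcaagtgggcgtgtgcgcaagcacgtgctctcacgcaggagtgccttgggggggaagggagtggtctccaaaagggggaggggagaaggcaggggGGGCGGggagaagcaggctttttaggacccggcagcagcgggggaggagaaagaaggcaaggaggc
Fgf9: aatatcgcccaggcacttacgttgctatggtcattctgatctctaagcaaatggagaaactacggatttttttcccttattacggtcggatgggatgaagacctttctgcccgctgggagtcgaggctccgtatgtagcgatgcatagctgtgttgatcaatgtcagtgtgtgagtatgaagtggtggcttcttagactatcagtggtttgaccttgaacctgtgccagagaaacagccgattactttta
Fgf16: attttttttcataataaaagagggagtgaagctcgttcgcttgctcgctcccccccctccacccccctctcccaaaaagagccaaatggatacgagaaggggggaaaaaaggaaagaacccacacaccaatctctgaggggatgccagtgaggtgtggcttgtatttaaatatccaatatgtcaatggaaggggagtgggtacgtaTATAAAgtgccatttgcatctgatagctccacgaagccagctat
The Fgf9 and Fgf16 windows belong to a transcript whose start differs from that of the gene table. The windows lie at chr1:194280915-194281164 (minus strand), chr9:81864561-81864810, chr15:36327108-36327357 and chrX:74882745-74882994 (plus strand). Both strands were searched for TATAAA, for GGGCGG, for AGATAA and for the CArG box, and none of these motifs overlapped another in the 4 windows. Fgfr2 held GGGCGG on each strand, at 47 to 42 and 19 to 14 bases before the start, and Igfbp2 held it at 66 to 61. Fgf16 held TATAAA at 44 to 39 bases before the start, and the Fgf9 window held none of the 4. GGGCGG was found in 32.4% of all 27457 promoter windows of this length and in 24 of the 43 members that the table lists, TATAAA in 13.1% and in 7, AGATAA in 10.0% and in 3, and the CArG box in 1.5% and in 1. The share of G and C was 76.8% in the Fgfr2 window, 64.0% in Igfbp2, 46.0% in Fgf9 and 47.2% in Fgf16, with a median of 52% over all windows and 61.6% over the members. A match is a description of letters and not evidence of a bound site. The table has no entry for Fgf17, Fgf19, Fgf20, Fgf23, Fgfr1, Pdgfrb and Pdgfrl.

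Differences among the 6 regions passed the moderated F-test of limma (Benjamini-Hochberg adjusted p below 0.05 over all genes) for 36 of the 49 members tested, or 73.5%, and for 64.4% of all 16089 genes tested. Fgf19 did not exceed 4 on any array and was not tested. All 7 IGF-binding proteins, both IGF ligands, both IGF receptors, all 4 VEGF ligands, all 3 VEGF receptors and all 3 PDGF receptors passed, as did 3 of 4 PDGF ligands, 3 of 4 FGF receptors and 9 of 20 FGF ligands. Among the 36, the mean signal was highest in PA for 14, in RV for 8, in LV for 6, in LA for 4, in PV for 3 and in SA for 1. When the regions of these members were put in order of their means, 42 of 180 steps between neighboring regions passed the test of that pair, against 17.6% of such steps among all genes called by the F-test. Of the 47 steps between PA and its neighbor in the order 25 passed, against 52% among all genes called. Most steps of the members did not pass. Between pairs of regions in any order, the share of all genes tested that passed was 52.1%, 55.8%, 53.6%, 53.6% and 53.4% for PA against LA, LV, RV, SA and PV, 33.8% and 27.2% for LA against LV and RV, 26.2% and 31.6% for LV against SA and PV, 21.7% and 25.9% for RV against SA and PV, 15.3% for LA and SA, 13.5% for LA and PV, 3.49% for SA and PV and 0.522% for LV and RV.

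PA was compared with the mean of the other 5 regions, which asks how a great vessel outside the heart differs from myocardium and from PV. 32 of 49 members passed, 16 higher and 16 lower, against 59.1% of all genes tested (31.4% higher and 27.7% lower). The median log2 difference was -0.15 over the members and 0.05 over all genes. For 18 of the 32, no PA array overlapped the 19 others, with 11 higher in PA and 7 lower, against 54.2% of all genes called. Smooth muscle markers moved with this comparison, with 7 of 7 higher in PA and a summed signal outside PA of 26899 to 32374 (LA), 27322 to 33541 (LV), 29570 to 32963 (RV), 43446 to 56572 (SA) and 50451 to 70361 (PV). Of 7 fibroblast markers, 5 were higher in PA and 1 lower, and all 6 shared myocyte markers were lower, as were 5 of 6 atrial and 5 of 6 ventricular myocyte markers with 0 and 1 higher. Of the other lists with at least 3 markers called in PA, adipocyte markers were 4 higher and 2 lower of 6, Schwann cell markers 1 higher and 4 lower of 6, pericyte markers 3 higher and 1 lower of 5, macrophage markers 3 higher and 1 lower of 6, endothelial markers 0 higher and 5 lower of 8, pacemaker markers 2 higher and 3 lower of 6, autonomic neuron markers 2 higher and 1 lower of 5, endocardial markers 2 higher and 1 lower of 4 and platelet markers 2 higher and 1 lower of 4. Their part in the members' differences was not tested.

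**Figure D1:**
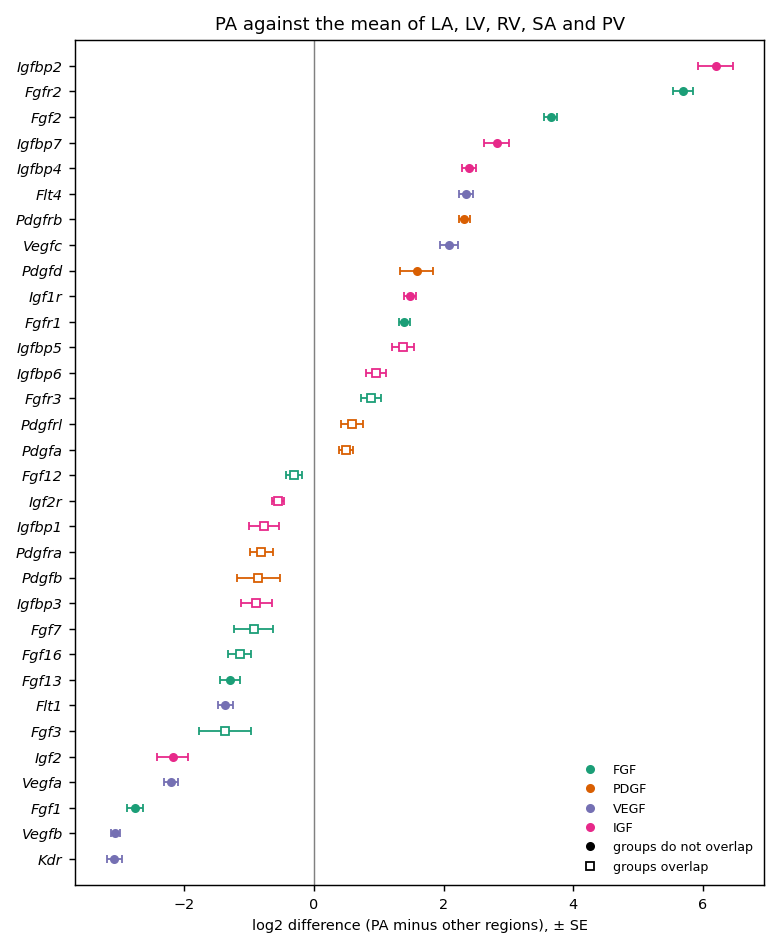
Log2 difference between PA (4 arrays) and the mean of LA, LV, RV, SA and PV (19 arrays) for the 32 members that passed the limma test, with its standard error, colored by system. Filled circles mark the 18 members without overlap between PA and the other arrays and open squares those with overlap; Igfbp2 (6.20) and Fgfr2 (5.70) lie farthest to the right and Kdr (-3.08) and Vegfb (-3.07) farthest to the left.

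The ventricle (7 arrays of LV and RV) was compared with the mean of LA, SA and PV (12 arrays), using arrays that also enter the PA comparison. 26 of 49 members passed, 15 higher and 11 lower in the ventricle, against 40.9% of all genes (22.3% higher and 18.6% lower), and for 10 of the 26 the groups did not overlap, against 27.2% of all genes called. The median log2 difference was 0.21 over the members and 0.08 over all genes. All 7 members of the VEGF system were higher in the ventricle by their brightest probes (a second Flt4 probe was not). Pgf, a gene of VEGF signaling that the symbol rule leaves out, was not higher there. It was at 10.04 ± 0.56 in LV and 10.01 ± 0.21 in RV against 11.17 ± 0.53 in LA, 10.95 ± 0.43 in SA and 11.575 ± 0.30 in PV. Of the 7 called members of the IGF system, 6 were lower. Endothelial markers moved in the same direction as the VEGF system, with 5 of 8 higher in the ventricle and 0 lower, and so did 5 of 5 pericyte, 5 of 6 macrophage, 5 of 6 ventricular myocyte and 3 of 6 lung epithelial markers, with 0 lower in each. The summed endothelial signal was 60278 to 66350 in LV and 55225 to 57291 in RV against 34013 to 47387 in LA, 32822 to 39163 in SA and 30365 to 36323 in PV. Other lists were lower in the ventricle, as the IGF members were: 5 of 7 smooth muscle markers with 0 higher, 4 of 5 mesothelial markers with 1 higher, 5 of 6 Schwann cell markers with 0 higher, 3 of 5 autonomic neuron, 3 of 4 endocardial, 4 of 6 atrial myocyte and 3 of 6 pacemaker markers with 0 higher, and 4 of 6 adipocyte and 3 of 4 erythroid markers with 1 higher. The mesothelial markers summed to 919 to 2757 in LV and 3800 to 6626 in RV, and the Schwann cell markers to 1616 to 2466 in LV and 1994 to 3305 in RV against 3792 to 5658 in LA. Fibroblast markers were 1 higher and 3 lower of 7, and lymphatic endothelial markers 2 higher and 1 lower of 4. The part of these cell types in the differences was not tested.

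**Figure D2:**
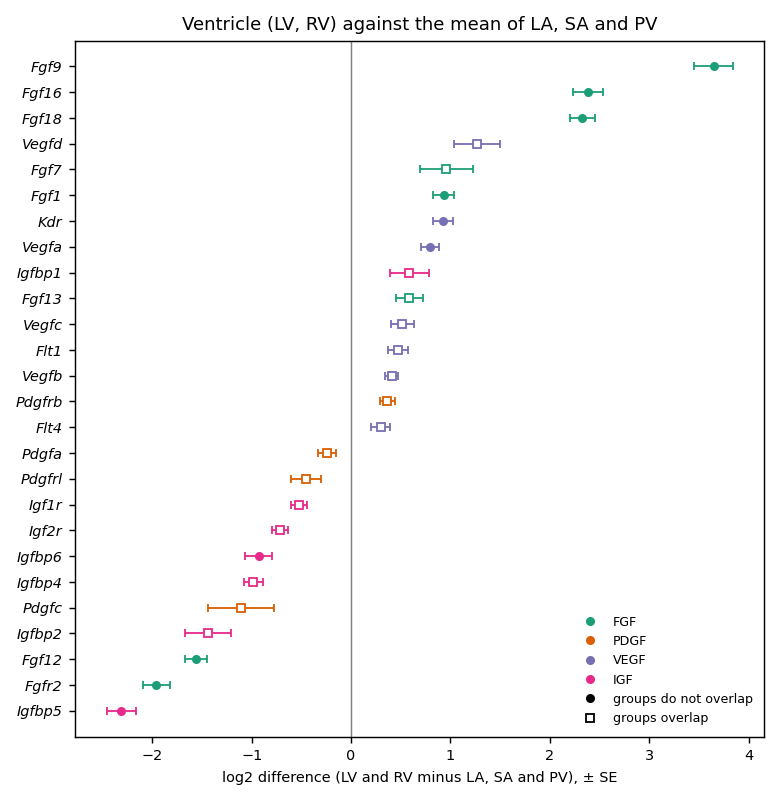
Log2 difference between the ventricle (7 arrays of LV and RV) and the mean of LA, SA and PV (12 arrays) for the 26 members that passed the limma test, with its standard error. Filled circles mark the 10 members without overlap and open squares those with overlap; Fgf9 (3.65), Fgf16 (2.38) and Fgf18 (2.32) had the largest positive differences and Igfbp5 (-2.31) the largest negative one.

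Among the FGF ligands, Fgf2 stood out in PA and Fgf9, Fgf16 and Fgf18 in the ventricle, whereas Fgf1 was lowest in PA. Fgf2, or basic FGF, is a mitogen for fibroblasts, endothelial cells and smooth muscle cells. Its 4 PA arrays were at 11.08, 11.11, 11.32 and 11.53 and the 19 other arrays at 7.01 to 8.35 (median 7.50). All PA arrays were above all others, by a log2 difference of 3.65 (SE 0.10, adjusted p = 8.2e-17), or 12.6-fold. PV held the second highest level (8.19, 8.19, 8.01 and 8.35), above RV, the next in order (adjusted p = 0.030), and the levels of RV, SA, LV and LA were not separated step by step. Fgf1, or acidic FGF, lacks a signal peptide and can bind every FGF receptor. Its PA arrays were at 11.36, 10.81, 10.46 and 10.70 and the others at 12.61 to 14.33 (median 13.45), with no overlap and a difference of -2.77 (SE 0.12, adjusted p = 9.6e-14). In the ventricle Fgf1 was at 13.95 to 14.33 (median 14.09) against 12.61 to 13.53 (median 13.29) in LA, SA and PV, again without overlap (0.93, SE 0.11, adjusted p = 7.0e-07). A second Fgf1 probe, well above background on all 23 arrays, differed by -1.37 in PA without overlap and by 0.57 in the ventricle with overlap.

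Fgf9 and Fgf16 belong to the same subfamily of ligands, and Fgf16 is known as a product of heart muscle. Fgf9 was at 7.24, 7.54, 6.98 and 6.94 in LV and 7.46, 7.23 and 6.85 in RV. In LA, SA and PV it was at 2.89 to 4.86 (median 3.43) and well above background on only 2 of 12 arrays, both of LA, and the groups did not overlap. The fitted log2 difference was 3.65 (SE 0.20, adjusted p = 2.0e-11), and with the dim arrays set to their lowest signal well above background it was 2.74. With normexp background correction it was 1.27, still past the threshold. Fgf16 was at 8.72, 8.69, 8.50 and 7.69 in LV, 8.30, 8.16 and 8.56 in RV, 7.15, 6.77, 6.80 and 6.69 in SA, 5.15, 5.60, 5.81 and 5.96 in PV and 5.27, 5.41, 5.46 and 5.74 in LA. Its difference between ventricle and atrial regions was 2.38 (SE 0.15, adjusted p = 2.4e-10), or 1.46 with normexp. Within the atrial regions, SA lay above LA and PV and below RV (adjusted p = 1.6e-04 for RV and SA). Fgf18, known for its role in skeletal and lung growth, was at 9.99 to 10.75 (median 10.28) in the ventricle and at 7.38 to 8.34 (median 8.01) in LA, SA and PV. The groups did not overlap (2.32, SE 0.13, adjusted p = 2.0e-11), and the PA mean lay between them, with PA arrays at 8.72, 8.32, 9.07 and 8.77.

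Fgf12 and Fgf13, like Fgf11 and Fgf14, are intracellular relatives of the FGF ligands that bind voltage-gated sodium channels. All of these are counted with the FGF ligands here. Fgf12 was lower in the ventricle, at 8.26 to 9.38 (median 8.72), than in LA, SA and PV, at 9.83 to 10.65 (median 10.25), with no overlap (-1.56, SE 0.11, adjusted p = 8.9e-10). The PA level of Fgf12 (9.25, 9.39, 9.11 and 9.44) gave a difference of -0.31 from the other 5 regions (adjusted p = 0.041), which no longer passed when any of 9 single arrays was left out, with an adjusted p between 0.051 and 0.16. Fgf13 was lowest in PA, at 10.15, 10.10, 10.07 and 9.96 against 10.24 to 12.02 (median 11.53) elsewhere (-1.30, SE 0.16, adjusted p = 4.1e-07). It was higher in the ventricle than in the atrial regions by 0.59 (SE 0.14, adjusted p = 0.0017), with overlap, and LA, at 11.58, 11.54, 11.86 and 11.74, lay within the ventricular range of 11.46 to 12.02 (median 11.72).

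Fgf7 and Fgf10 are products of mesenchymal cells that act on the b splice form of FGFR2. Fgf7 was at 7.46, 7.16 and 7.19 in RV and at 4.86, 4.74, 4.04 and 4.38 in LV, where it was well above background on only 1 of 4 arrays. The difference between LV and RV was -2.76 (SE 0.42, adjusted p = 0.0029), or -2.61 with the dim LV arrays at their lowest signal well above background and -1.04 with normexp, and RV was also above SA, the next region in order (adjusted p = 0.0013). Its calls in the ventricle as a whole (0.96, adjusted p = 0.0066) and in PA (-0.93, adjusted p = 0.012) were computed with 1 of 4 LV arrays, 6 of 12 arrays of LA, SA and PV and 2 of 4 PA arrays well above background. In order of means LV stood below SA and PV, and with normexp the ventricular difference was 0.49. Fgf10 was at 5.03, 8.42 and 5.20 in RV, so that 1 RV array set its mean. Without that array its F-test no longer passed (adjusted p = 0.11 against 0.028 with it). Fgf3 was lower in PA (3.86, 5.04, 4.49 and 3.95) than the mean of the others (-1.38, SE 0.40, adjusted p = 0.0059), with overlap, with 1 of 4 PA arrays well above background, and it did not pass the F-test over the 6 regions. With another background correction (normexp) the PA calls of Fgf3 and Fgf7 did not pass (adjusted p = 0.091 and 0.099), nor did that of Fgf7 without PA replicate 4 (adjusted p = 0.066). Fgf16 was lower in PA than the mean of the other regions (-1.15, SE 0.18, adjusted p = 1.1e-05, or -0.66 with normexp). In PA it overlapped LA and PV and was well above background on 3 of 4 arrays.

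The 10 genes counted as FGF ligands that were tested and passed neither the F-test nor either of these comparisons were Fgf5, Fgf6, Fgf8, Fgf11, Fgf14, Fgf17, Fgf20, Fgf21, Fgf22 and Fgf23. Fgf21 and Fgf23 are endocrine FGFs. Regional means of Fgf21 ran from 5.89 to 6.21 and those of Fgf23 from 5.62 to 6.73, and each of the 10 failed to stand well above background on at least 1 array.

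Of the 4 FGF receptors, all tyrosine kinases, 3 were higher in PA and 1, Fgfr4, did not pass in any comparison. Fgfr2 had the second largest difference of all members, from 5.78 to 9.27 (median 7.99) on the other 19 arrays to 13.46, 13.70, 13.41 and 13.40 in PA, or 52.1-fold (5.70, SE 0.16, adjusted p = 7.5e-17). Outside PA its mean was lowest in LV, followed by RV, LA, SA and PV. LV was at 6.95, 6.29, 5.78 and 6.27 and PV at 8.89, 9.12, 9.15 and 9.27, and the ventricle differed from the atrial regions by -1.96 (SE 0.14, adjusted p = 7.4e-10) without overlap. Of the steps among these 5 regions, that from RV to LA passed (adjusted p = 6.4e-04), and those from LV to RV, LA to SA and SA to PV did not (adjusted p = 0.28, 0.062 and 0.19). A second, dimmer Fgfr2 probe, well above background on 9 of 23 arrays, was also highest in PA, by 3.34 without overlap. Its difference between ventricle and atrial regions had the opposite sign (0.96, with overlap). Fgfr1 was at 11.14, 11.25, 10.96 and 11.19 in PA and at 9.41 to 10.14 (median 9.76) elsewhere, with no overlap (1.39, SE 0.09, adjusted p = 1.9e-11), and no step among the other 5 regions passed. Fgfr3 was at 9.12, 9.05, 9.46 and 9.01 in PA, 8.65, 8.70, 8.66 and 8.51 in LV and 7.57, 7.33, 7.40 and 7.83 in LA, where it was lowest. PA overlapped the other arrays at a difference of 0.88 (SE 0.15, adjusted p = 3.2e-05), and PA and LV were the first and second in order and differed (adjusted p = 0.023).

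**Figure D3:**
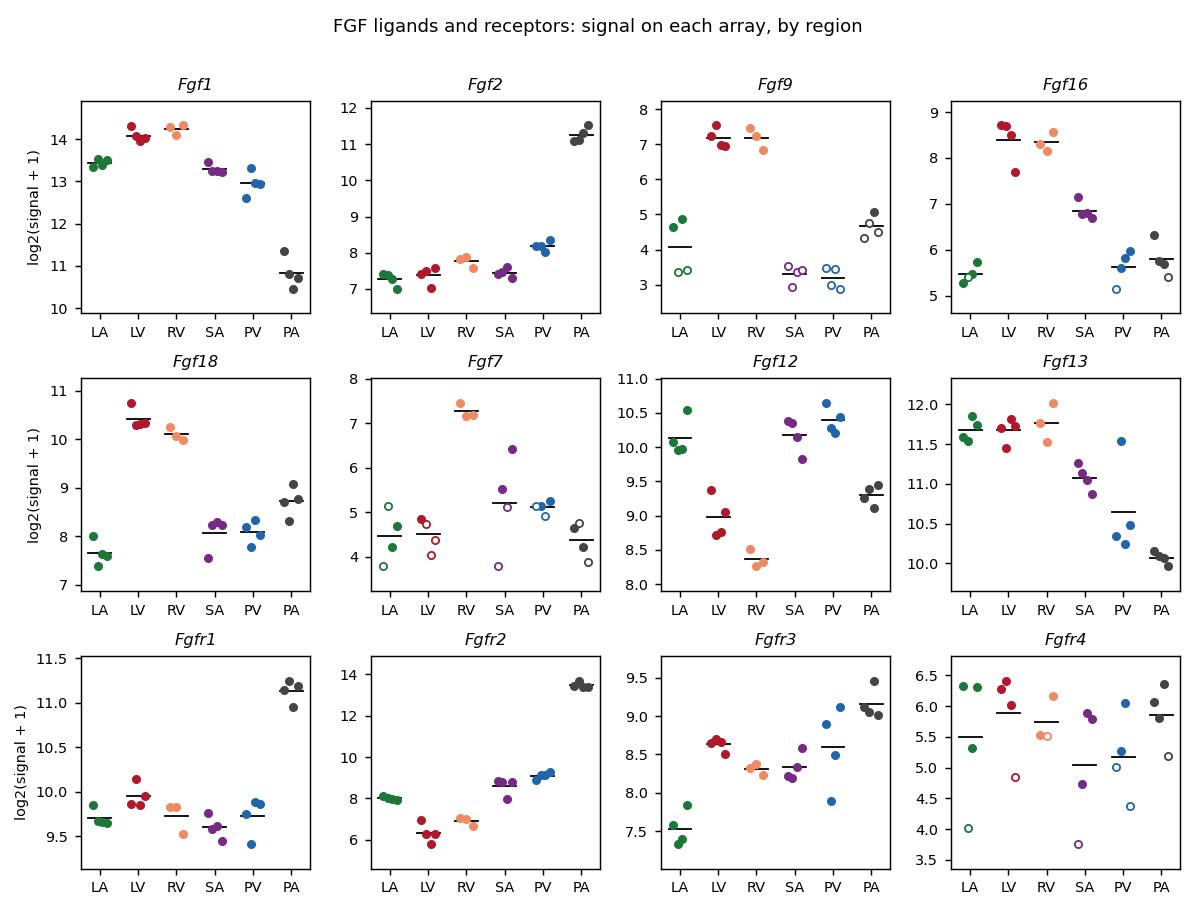
Signal of 8 FGF ligands and 4 FGF receptors on each of the 23 arrays, as log2(normalized signal + 1), with a separate vertical scale for each gene. Filled points were well above background and open points were not, and lines are regional means; Fgf2, Fgfr1 and Fgfr2 are highest in PA, and Fgf9, Fgf16 and Fgf18 in LV and RV.

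A further 16 genes for FGF co-receptors, heparan sulfate carriers and adaptors were counted as FGF partners. In PA 6 of them were higher and 5 lower, with Gpc1, a glypican, changed most, at 11.94 ± 0.25 in PA (n = 4) with a difference of -3.20 (SE 0.08, adjusted p = 2.6e-17) from the other regions. In the ventricle 2 were higher and 6 lower, and the largest difference was that of the syndecan Sdc1 (-1.29, SE 0.18, adjusted p = 7.0e-06). Of 9 feedback targets of FGF signaling, such as the Sprouty and Spred inhibitors, 4 were higher in PA and 0 lower, with Spred3 the most changed (1.69, SE 0.14, adjusted p = 1.3e-09). In the ventricle 5 of the 9 were higher and 1 lower. The receptor-like Fgfrl1, which has no kinase domain and was picked here after its value was seen, was at 13.49 ± 0.10 in PA against 10.70 ± 0.04 in PV.

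In the VEGF system the receptors and ligands parted in PA: Vegfa, Vegfb, Kdr and Flt1 were lower there and Vegfc and Flt4 higher. Vegfa, the main ligand of Flt1 and Kdr, was at 11.98, 11.89, 12.50 and 12.41 in PA and at 13.77 to 15.26 (median 14.25) on all other arrays, a difference of -2.20 (SE 0.11, adjusted p = 3.9e-13) without overlap. Vegfb, a ligand of Flt1, was at 10.29, 10.19, 10.31 and 10.18 in PA against 12.82 to 13.71 (median 13.30). Its difference, -3.07 (SE 0.07, adjusted p = 9.0e-18), had the smallest standard error of the 32 called members. Both probes of Vegfb and all 3 of Vegfa were lowest in PA. The second Vegfb probe, well above background on all 23 arrays, differed by -1.78 in PA, without overlap.

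Vegfc and Vegfd are the ligands of Flt4, the receptor known from lymphatic endothelium. Vegfc was at 12.24, 12.59, 12.18 and 12.36 in PA and at 9.71 to 11.09 (median 10.22) elsewhere (2.08, SE 0.13, adjusted p = 3.8e-11), and none of the steps among the other 5 regions passed. Vegfd was at 7.02, 7.17, 6.96 and 6.50 in LV and 6.08, 6.73 and 7.005 in RV. The atrial regions were at 4.19 to 6.31 (median 5.34), with overlap, and the difference was 1.27 (SE 0.23, adjusted p = 1.6e-04), or 0.54 with normexp. No difference between PA and the rest was called for Vegfd, whose PA arrays were at 6.04, 6.15, 6.36 and 5.13.

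Kdr, the main signaling receptor of VEGF on endothelium, was at 10.98, 10.43, 10.75 and 10.36 in PA and at 12.99 to 14.85 (median 13.52) on the other arrays, 8.49-fold lower in PA (-3.08, SE 0.12, adjusted p = 8.5e-15). Flt1, which also acts as a decoy, was at 7.47, 7.17, 6.97 and 7.30 in PA against 7.99 to 9.16 (median 8.56), a difference of -1.37 (SE 0.11, adjusted p = 1.9e-09). Flt4 went the other way, at 11.23, 11.26, 10.84 and 11.16 in PA against 8.24 to 9.31 (median 8.75), a difference of 2.35 (SE 0.11, adjusted p = 2.9e-13). By these brightest probes, none of the receptors had PA arrays within the range of the others. A second Flt1 probe, well above background on 22 arrays, differed by -0.51 in PA and a second Flt4 probe, well above background on all 23, by 0.55, both with overlap. In the ventricle, Vegfa was at 14.53 to 15.26 (median 14.97) against 13.77 to 14.40 (median 14.15) in LA, SA and PV (0.80, SE 0.09, adjusted p = 9.0e-07), and Kdr at 14.04 to 14.85 (median 14.22) against 12.99 to 13.60 (median 13.37), a difference of 0.92 (SE 0.10, adjusted p = 4.3e-07). Neither overlapped. Vegfb, Vegfc, Flt1 and Flt4 differed by 0.41, 0.51, 0.48 and 0.30, all with overlap, and the Flt4 call did not pass without RV replicate 2 (adjusted p = 0.075). The second Flt4 probe had the opposite sign there (-0.20), and the second Flt1 probe the same sign (0.66), both with overlap. A second Vegfb probe differed by 0.76, without overlap.

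Endothelial markers also fell in PA, where 5 of 8 were lower and 0 higher, at a summed signal of 27878 to 53892 in PA, a range that spans those of LA, SA and PV. Of 4 lymphatic markers, 1 was higher and 1 lower in PA. Their part in the receptor differences was not tested. Of 13 further genes of VEGF signaling, 4 were higher and 8 lower in PA, and 9 were higher and 1 lower in the ventricle. Apln, the peptide apelin, changed most in both comparisons: it was at 8.51 ± 0.18 in PA, 12.75 ± 0.11 in LV and 10.01 ± 0.46 in LA (n = 4 each), with log2 differences of -2.995 (SE 0.15, adjusted p = 8.9e-13) in PA and 2.49 (SE 0.13, adjusted p = 1.6e-11) in the ventricle. Tie1 and Tek stand in both this list and the endothelial markers. Pgf, also in this list, was highest in PA (12.71 ± 0.35).

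PDGF receptors divided in PA as well. Pdgfrb, the receptor of smooth muscle cells and pericytes, was at 13.91, 13.86, 13.53 and 13.57 in PA and at 10.79 to 11.78 (median 11.51) elsewhere, with no overlap (2.32, SE 0.09, adjusted p = 8.6e-15, 5-fold). Pdgfra, best known from fibroblasts and other mesenchymal cells, was at 11.73, 11.14, 11.12 and 10.99 in PA against 10.95 to 12.84 (median 12.13). The ranges overlapped and the difference was -0.81 (SE 0.17, adjusted p = 3.7e-04). SA was nearly as low for Pdgfra as PA, at 11.20, 11.68, 10.95 and 11.55, and the difference between them did not pass (adjusted p = 0.74). Pdgfrl, a receptor-like protein without a kinase domain, was highest in PV and PA, at 10.98, 10.59, 11.18 and 11.18 and 11.18, 10.85, 10.16 and 10.65, which overlapped. Its PA difference from the other regions (0.59, adjusted p = 0.0055) turned to -0.12 within slide 2.

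Of the ligands, Pdgfd, which acts on Pdgfrb, was at 5.53, 5.80, 5.54 and 6.06 in PA. It was well above background on all 4 PA arrays and on 5 of the 19 others, which were at 2.56 to 5.42 (median 4.16). The difference was 1.58 (SE 0.25, adjusted p = 1.8e-05), or 1.11 with dim arrays at their lowest signal well above background and 0.46 with normexp. Pdgfa, a ligand of Pdgfra, was at 14.44, 14.37, 14.66 and 14.54 in PA against 13.46 to 14.73 (median 13.99), a difference of 0.49 (SE 0.11, adjusted p = 4.4e-04) with overlap. Pdgfc was highest in LA, at 6.24, 5.72, 6.45 and 6.23, and lower in the ventricle (-1.11, SE 0.33, adjusted p = 0.011), or -0.63 with dim arrays at that floor and -0.34 with normexp; without RV replicate 2 the call did not pass (adjusted p = 0.051). Pdgfb passed only in PA (-0.86, adjusted p = 0.034) and was dim, with 1 of 4 PA arrays and 10 of the 19 others well above background, and the call did not pass without PA replicate 1, 2 or 4 or with normexp (adjusted p = 0.062 to 0.12). In the ventricle Pdgfrb was higher (0.36, SE 0.08, adjusted p = 7.2e-04), with overlap, and Pdgfrl and Pdgfa differed by -0.45 and -0.24. The Pdgfrl call did not pass without RV replicate 1 (adjusted p = 0.071), and the Pdgfa call (adjusted p = 0.042) was lost in 14 alternative settings. Of 8 further genes of PDGF signaling, 4 were higher and 3 lower in PA, the phosphatase Ptprj most (2.65, SE 0.10, adjusted p = 5.5e-15), and 3 were higher and 0 lower in the ventricle.

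**Figure D4:**
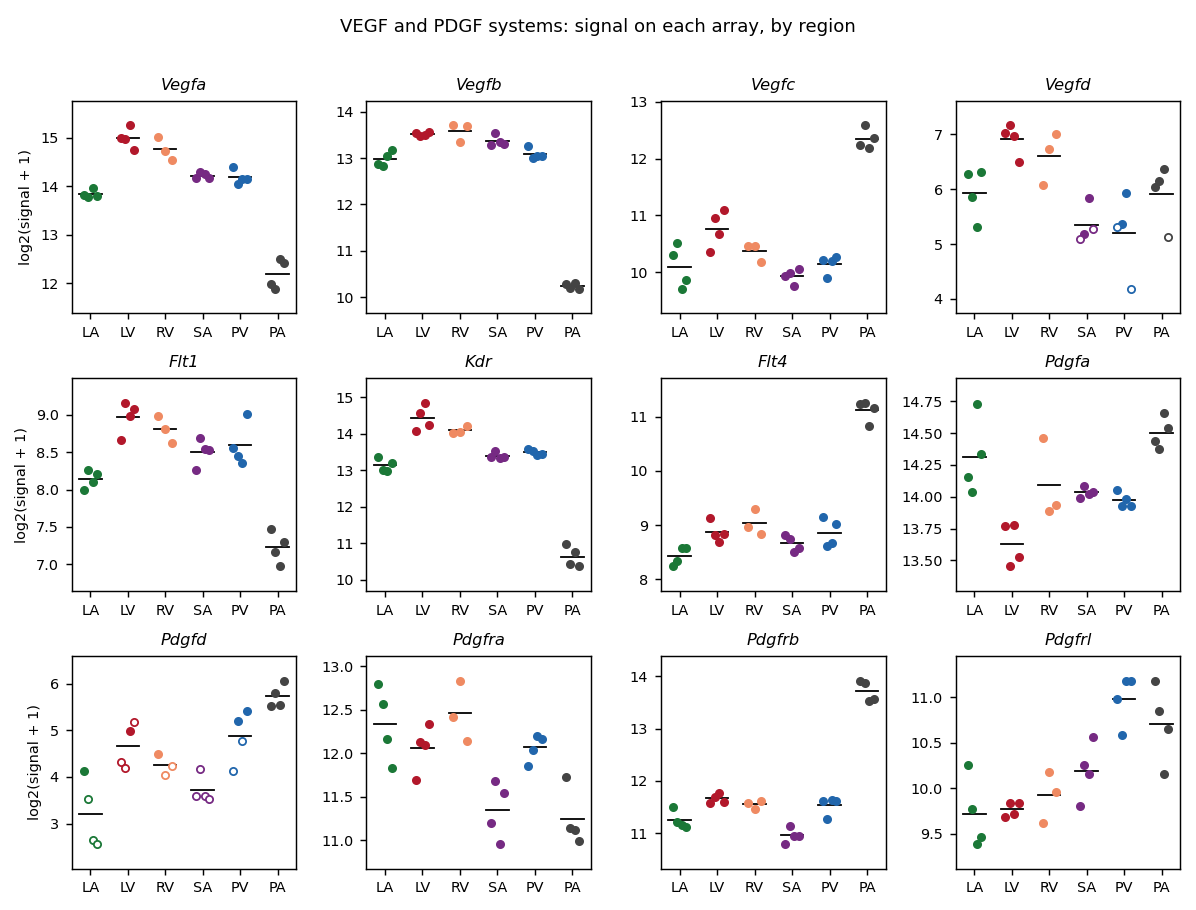
Signal of 7 VEGF genes and 5 PDGF genes on each of the 23 arrays, as log2(normalized signal + 1), with a separate vertical scale for each gene. Filled points were well above background and open points were not, and lines are regional means; PA is lowest for Vegfa, Vegfb, Flt1 and Kdr and highest for Vegfc, Flt4 and Pdgfrb.

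The IGF system held the largest PA difference and the largest difference between LA and SA. Igfbp2, a carrier of IGF with a preference for IGF-2, was at 13.67, 13.63, 13.54 and 13.74 in PA and at 5.92 to 9.03 (median 7.65) on the other 19 arrays, 73.5-fold higher (6.20, SE 0.27, adjusted p = 7.8e-14). Outside PA it was highest in LA (8.24, 8.38, 8.51 and 8.73) and lowest in LV (6.53, 6.08, 5.92 and 6.06). It was lower in the ventricle than in the atrial regions, with overlap (-1.44, SE 0.23, adjusted p = 5.4e-05, or -0.93 with normexp). Igfbp7, which binds IGF weakly and is made by vessel walls, was at 12.52, 12.68, 12.80 and 12.67 in PA against 8.86 to 10.93 (median 9.83), a difference of 2.82 (SE 0.19, adjusted p = 5.3e-11). Igfbp4, an inhibitory carrier, was at 13.89, 14.02, 14.08 and 13.83 in PA against 10.70 to 12.42 (median 11.62), a difference of 2.40 (SE 0.11, adjusted p = 2.4e-13). All PA arrays of these 3 lay above all others.

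Igfbp5 followed another order. It was at 10.61, 10.12, 10.42 and 10.52 in PV, 9.64, 10.29, 10.87 and 10.69 in PA, 9.72, 10.37, 10.03 and 9.91 in SA, 9.20, 9.15, 9.37 and 9.67 in LA, 8.28, 8.13 and 8.02 in RV and 7.10, 6.71, 7.19 and 7.31 in LV. PV, PA and SA were not separated, while SA and LA, LA and RV, and RV and LV each differed (adjusted p = 0.044, 6.1e-04 and 0.043), although the first and last of these calls did not pass in 18 and 19 of the alternative settings. The ventricle lay below the atrial regions without overlap (-2.31, SE 0.15, adjusted p = 1.8e-10), and PA overlapped the rest at a difference of 1.37 (SE 0.17, adjusted p = 5.1e-07). Igfbp6, another carrier with a preference for IGF-2, was at 11.03 to 11.51 (median 11.35) in the ventricle and 11.59 to 12.68 (median 12.21) in LA, SA and PV (-0.93, SE 0.13, adjusted p = 1.3e-05), and PA exceeded the mean of the rest by 0.96. Igfbp3, the main carrier in plasma, and Igfbp1 were lower in PA with overlap, Igfbp3 at 12.71, 11.63, 12.56 and 11.84 against 12.04 to 14.23 (median 13.01), a difference of -0.89 (SE 0.24, adjusted p = 0.0029) and Igfbp1 at 9.52, 9.70, 8.90 and 9.49 against 9.17 to 10.98 (median 10.25), a difference of -0.77 (SE 0.23, adjusted p = 0.0066). In the ventricle, Igfbp4 differed by -0.98 and Igfbp1 by 0.59, and the Igfbp1 call did not pass without LV replicate 1, RV replicate 2 or RV replicate 3.

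Of the receptors, Igf1r, the signaling receptor, was at 11.66, 11.87, 11.92 and 11.78 in PA and at 9.76 to 10.77 (median 10.40) elsewhere (1.49, SE 0.09, adjusted p = 2.5e-11), without overlap, and it was lower in the ventricle than in the atrial regions, with overlap (-0.53, SE 0.08, adjusted p = 2.9e-05). A second Igf1r probe, well above background on all 23 arrays, differed by 0.71 in PA and by 0.0093 in the ventricle, both with overlap. Igf2r, which removes IGF-2 and carries lysosomal enzymes, was at 13.93, 14.11, 13.95 and 14.18 in SA, the highest of the 6 regions and the only member of the set called by the F-test for which that was so. It was lower in the ventricle (-0.72, SE 0.08, adjusted p = 6.7e-07) and in PA (-0.55, SE 0.09, adjusted p = 3.5e-05), with RV at 12.94, 12.96 and 12.77.

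Igf2 was highest in LA, at 13.24, 14.51, 13.53 and 13.02, and lowest in PA, at 10.35, 10.03, 9.88 and 9.89. Between them lay LV (12.47, 12.53, 11.65 and 12.22), RV (12.06, 12.35 and 12.29), PV (11.74, 12.89, 11.46 and 11.69) and SA (11.24, 11.21, 10.77 and 11.31). LA exceeded RV, the next in order (adjusted p = 0.0044), SA exceeded PA (adjusted p = 0.0046), and the steps between RV, LV, PV and SA did not pass. PA was below the mean of the rest without overlap, at a difference of -2.18 (SE 0.24, adjusted p = 9.9e-08). A second, dimmer Igf2 probe, well above background on all 23 arrays, was also highest in LA but was lowest in SA, and its PA difference was -0.75 with overlap. H19, the noncoding neighbor of Igf2 that is imprinted with it, was at 15.57 ± 1.01 in LA, 12.63 ± 0.22 in RV (n = 3), 12.25 ± 0.71 in LV, 10.94 ± 0.92 in PA, 10.71 ± 1.67 in PV and 9.99 ± 0.72 in SA (n = 4 for the others).

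Igf1 was at 13.36, 13.49, 13.07 and 13.02 in LA and at 13.13, 12.92, 12.90 and 12.72 in PA, followed by RV (12.75, 13.21 and 12.29), SA (12.53, 12.82, 12.42 and 12.78), PV (12.45, 12.73, 12.57 and 12.68) and LV (12.19, 12.82, 12.50 and 12.57), and no step in this order passed. Its 5 probes did not give the same order: they were highest in LA, PA or RV, and one that was highest in RV was lowest in PA. The Igf1 values above are those of the probe that was brightest on every array. Of 12 further genes of IGF signaling, 4 were higher and 3 lower in PA, with the protease Htra1, which cleaves IGF-binding proteins, changed most (2.19, SE 0.10, adjusted p = 3.5e-13). In the ventricle 3 were higher and 1 lower.

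**Figure D5:**
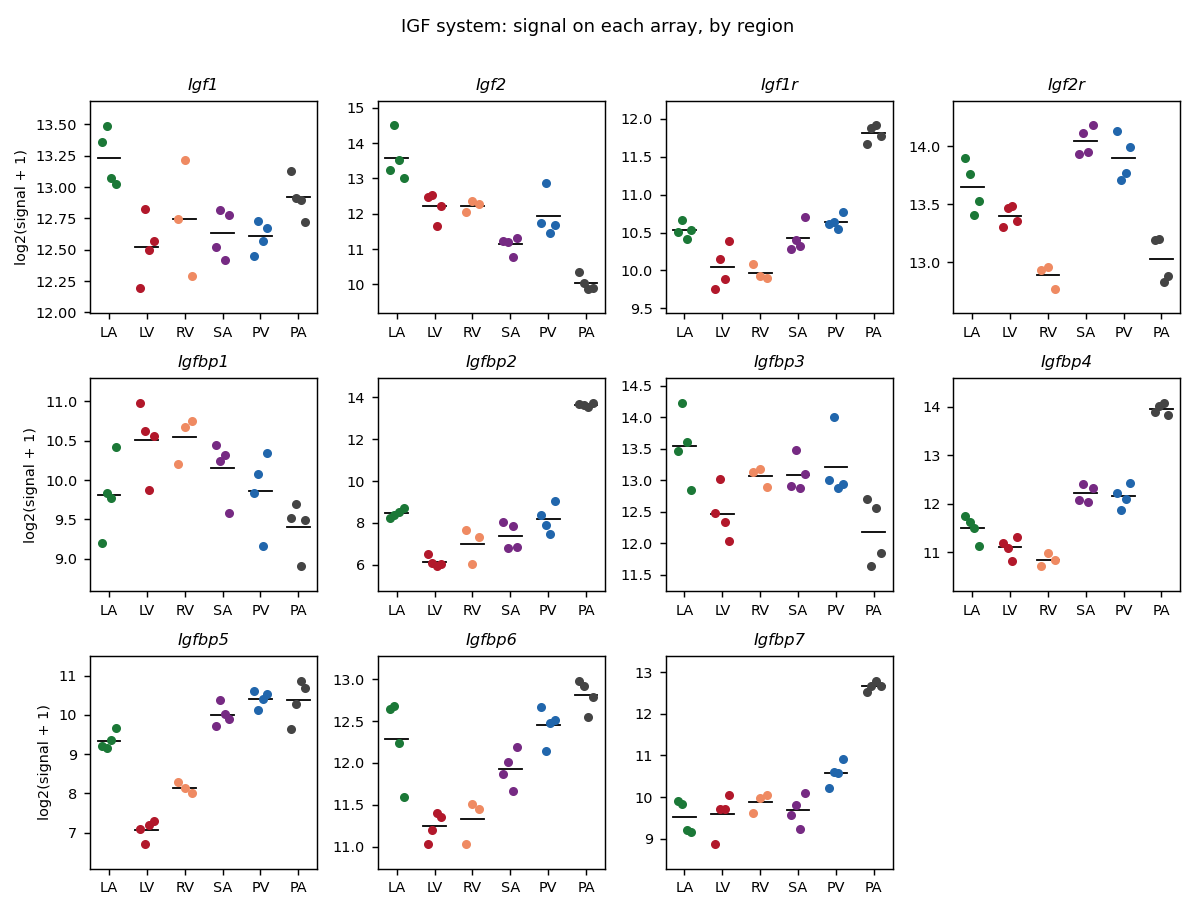
Signal of the 11 genes of the IGF system on each of the 23 arrays, as log2(normalized signal + 1), with a separate vertical scale for each gene. Points are arrays and lines are regional means; Igfbp2, Igfbp4, Igfbp7 and Igf1r are highest in PA, Igf2 in LA, and Igfbp5 is lowest in LV and RV.

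SA was compared with LA, the working atrial muscle, and 11 of 49 members passed, 6 higher and 5 lower, against 15.3% of all genes (7.03% higher and 8.26% lower). None of the 11 overlapped, as for 90.1% of all genes called. Igf2 had the largest difference (-2.45, SE 0.30, adjusted p = 2.7e-05), from the LA and SA values given above. Fgf16 was next, at 7.15, 6.77, 6.80 and 6.69 in SA against 5.27, 5.41, 5.46 and 5.74 in LA (1.38, SE 0.23, adjusted p = 3.5e-04). Pdgfra was at 12.80, 12.57, 12.16 and 11.83 in LA and differed by -0.996 (SE 0.22, adjusted p = 0.0043). Fgfr3, at 8.22, 8.19, 8.33 and 8.59 in SA, was higher by 0.80 (SE 0.19, adjusted p = 0.0074), Igfbp4, at 12.08, 12.41, 12.02 and 12.32 in SA and 11.75, 11.62, 11.49 and 11.13 in LA, by 0.71 (SE 0.14, adjusted p = 0.0021), and Vegfb, at 13.29, 13.53, 13.35 and 13.30 and 12.88, 12.82, 13.04 and 13.17, by 0.39 (SE 0.09, adjusted p = 0.0072). Calls close to the threshold were Igfbp2 (-1.07, adjusted p = 0.043), Igfbp5 (0.66, adjusted p = 0.044), Igf2r (0.40, 0.031), Igf1 (-0.60, 0.022) and Fgf13 (-0.60, 0.049). Each of these 5 calls was lost when some single arrays were left out: 18 of the 23 arrays for Fgf13, 14 for Igfbp5, 11 for Igfbp2 and 4 each for Igf1 (LA replicates 1 and 2, SA replicates 1 and 3) and Igf2r (LA replicates 3 and 4, SA replicates 2 and 4). Region and row of the slide were partly confounded here, with 3 of 4 LA arrays in the first row and 3 of 4 SA arrays in the second. With the row as a block, the calls of Fgf13, Igfbp2, Igf2r and Igfbp5 did not pass (adjusted p = 0.11, 0.072, 0.067 and 0.059).

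PV was compared with LA, next to which it lies, and 13 of 49 members passed, 9 higher and 4 lower, against 13.5% of all genes (6.99% higher and 6.51% lower). 12 of the 13 did not overlap, against 85% of all genes called. Pdgfd had the largest difference (1.66, SE 0.33, adjusted p = 0.0019), but it was well above background on only 2 of 4 PV arrays and 1 of 4 LA arrays, and with dim LA arrays at the floor the difference was 0.80, and with normexp 0.60. Among members well above background on all arrays of both regions, the largest differences were those of Pdgfrl (1.26, SE 0.22, adjusted p = 6.1e-04), Fgfr2 (1.09, SE 0.20, adjusted p = 0.0011), Igfbp5 (1.07, SE 0.22, adjusted p = 0.0022), Fgfr3 (1.07, SE 0.19, adjusted p = 8.1e-04), Igfbp7 (1.06, SE 0.24, adjusted p = 0.0052) and Fgf2 (0.92, SE 0.13, adjusted p = 9.5e-05), all higher in PV, and Igf2 (-1.63, SE 0.30, adjusted p = 0.0011) and Fgf13 (-1.03, SE 0.20, adjusted p = 0.0017), both lower. Fgf13 was at 10.34, 11.53, 10.24 and 10.48 in PV, so that the highest PV array was just below the lowest LA array (11.54). In LA, Pdgfrl was at 10.26, 9.77, 9.39 and 9.47, Fgfr2 at 8.13, 8.04, 7.99 and 7.92, Igfbp7 at 9.91, 9.83, 9.20 and 9.17 and Fgf2 at 7.40, 7.38, 7.28 and 7.01, each below every PV array, and Fgfr3 in PV was at 8.90, 7.89, 8.49 and 9.12. The second, dimmer Fgfr2 probe differed by 0.17 between PV and LA, with overlap. Igfbp4 (0.65), Flt1 (0.45), Igf1 (-0.63) and Fgf1 (-0.49) also passed, but Fgf1 was lost on leaving out any of 17 single arrays, Flt1 any of 13, and Igf1 any of 3 (LA replicate 1 or 2, PV replicate 1). PV also had 3 of 4 arrays in the second row, and with the row as a block the calls of Fgf1 and Flt1 did not pass (adjusted p = 0.10 for each). In a fit of only the 8 PV and LA arrays, Igf2, Fgf13, Fgfr3, Igfbp4, Pdgfd, Fgf1 and Flt1 did not pass (adjusted p = 0.053 to 0.12). The PV and LA arrays also enter the comparison of PA with the other regions.

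Between PV and SA, 4 of 49 members passed against 3.49% of all genes (2.71% higher and 0.783% lower). Igfbp7, at 10.21, 10.60, 10.59 and 10.93 in PV and 9.58, 9.81, 9.23 and 10.10 in SA, was higher in PV by 0.90 (SE 0.24, adjusted p = 0.042). Fgf2, at 7.42, 7.46, 7.60 and 7.31 in SA, was higher in PV by 0.74 (SE 0.13, adjusted p = 0.0039), and Pdgfrb, at 11.62, 11.28, 11.64 and 11.61 in PV and 10.79, 11.15, 10.95 and 10.96 in SA, by 0.58 (SE 0.11, adjusted p = 0.0081). Fgf16 was lower in PV (-1.22, SE 0.23, adjusted p = 0.0060). None of the 4 overlapped, as for 89.3% of all genes called, and the Igfbp7 call (adjusted p = 0.042) did not pass on leaving out any of 11 single arrays. In a fit of only the 8 PV and SA arrays, Fgf16, Pdgfrb and Igfbp7 did not pass (adjusted p = 0.053, 0.086 and 0.13), and Fgf2 did (adjusted p = 0.047). Same-numbered PV and SA arrays shared slide and row, and with that number as a block in the same 8 arrays no member passed by limma (9 at an unadjusted p below 0.05), nor did any gene (2253 at an unadjusted p below 0.05).

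Marker lists moved with these comparisons too. Of 7 smooth muscle markers, 5 were higher in SA than in LA, 5 higher in PV than in LA and 4 higher in PV than in SA, with 0 lower in each. All 5 mesothelial markers were lower in SA and in PV than in LA, at a summed signal of 23353 to 28790 in LA, 5814 to 10835 in SA and 3714 to 10334 in PV. Of 7 fibroblast markers, 4 were higher and 2 lower in SA than in LA, 4 were higher and 0 lower in PV than in LA, and 3 were higher and 0 lower in PV than in SA, at a summed signal of 138991 to 240074 in LA, 181714 to 365678 in SA and 345523 to 517531 in PV. Of 6 Schwann cell markers, 5 were higher in PV than in LA and 4 higher in PV than in SA. Of 5 autonomic neuron markers, 4 were higher in PV than in LA and 4 than in SA, at a summed signal of 1895 to 19564 in PV against 581 to 861 in LA. Of 6 pacemaker markers, 4 were higher in SA and 4 in PV than in LA, and of 5 pericyte markers 3 in each, with 0 lower. Lower in SA than in LA were 3 of 4 lymphatic and 3 of 4 endocardial markers, with 0 higher, and 3 of 6 adipocyte markers were higher in PV than in LA, with 0 lower. Their part in the members' differences was not tested. H19 had the largest difference of the 12 IGF partner genes in both SA (-5.58, SE 0.68, adjusted p = 2.2e-05) and PV (-4.86, SE 0.68, adjusted p = 8.6e-05) against LA. Among the FGF partners the largest was Sdc1, higher in SA (1.78, SE 0.26, adjusted p = 1.2e-04) and in PV (1.89, SE 0.26, adjusted p = 7.0e-05), and among the VEGF partners it was Angpt1, a ligand of Tek, lower in SA (-1.77, SE 0.25, adjusted p = 8.9e-05) and in PV (-2.12, SE 0.25, adjusted p = 1.5e-05).

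LV and RV were compared with each other. Only Fgf7, described above, and Igfbp5 passed, 2 of 49 members against 0.522% of all genes (0.298% higher and 0.224% lower in LV), and both were higher in RV. Neither overlapped, as for 98.8% of all genes called. The Igfbp5 difference was -1.07 (SE 0.23, adjusted p = 0.043), and it did not pass in 19 of the alternative settings, 14 of them with 1 array left out (adjusted p = 0.050 to 0.17). No partner gene passed between LV and RV in any of the 5 lists.

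A specificity measure (SPM) was computed over LA, V and SA as in the methods, by dividing each regional mean by the root of the summed squares of the 3 means. Members above the permutation threshold of 0.613 that also passed the F-test over the 15 arrays were Fgf9 (0.807), Fgf16 (0.691), Fgf18 (0.679), Pdgfd (0.675) and Vegfd (0.647) for V, Pdgfc (0.670), Igfbp2 (0.652) and Igf2 (0.635) for LA, and Igfbp5 (0.640) and Fgfr2 (0.638) for SA. That is 5 of the 50 members for V against 5.31% of the 15809 genes tested, 3 for LA against 3.51% and 2 for SA against 2.62%. Of the 50, Fgf14 and Fgf19 did not exceed 4 on any of the 15 arrays and were not tested here. PA and PV do not enter this measure, and Igfbp2, Fgfr2 and Pdgfd had their highest mean in PA and Igfbp5 in PV. Pdgfd was well above background on 2 of the 7 ventricular arrays. The second, dimmer Fgfr2 probe was lower in SA (3.36) than in LA (3.72), LV (4.55) and RV (4.69).

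The 32 PA calls and the 26 ventricular calls had the same sign within each of the 3 slides and both rows of the slides, except Pdgfrl in PA on slide 2 (-0.12) and Fgf7 in the ventricle on slide 1 (-0.29). The calls of SA, PV, LV and RV had the same sign within every slide and row that held both groups. RV had no array on slide 1.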

How the data were processed

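RNA of 23 rat samples was labeled with 1 dye and hybridized to Agilent arrays. The deposited values were intensities that the authors scaled to a percentile of each array after Agilent Feature Extraction 11.0.1.1 (version from the submitters' processing notes). They equaled the scanner's processed signal times 1 factor per array within 2% for 99.57% to 99.82% of the probes. Of 45596 probes, 156 with a missing value were removed, and 21047 of the remaining 45440 had a symbol through their accession in RefSeq, giving 16544 genes. The brightest probe of a gene was used on each array, log2(signal + 1) was taken, and genes above 4 on at least 1 array (16089) entered a linear model over the 6 regions in limma 3.58.1 (R 4.3.3) with empirical Bayes moderation and Benjamini-Hochberg adjustment over all genes. The model was tested on simulated data. Tables, sequences and plots were made with Python 3.11.15, pandas 2.3.3, numpy 2.4.6 and matplotlib 3.10.9.

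Where a gene was not well above background on an array, differences were also computed with that array at its lowest signal well above background. Array number limits the precision. Per-array values are given for members past the F-test, up to 12 per direction in each comparison. Partner genes are named where they had the largest difference of their list. The members, lists and tests were chosen with earlier results of these data known. Alternatives were other normalizations, background correction, filters, probe choice, pseudocount, slide, row or replicate number as a block, and each array left out. Deviations of same-numbered arrays correlated at a median of -0.04 over all pairs of regions, and those of arrays in the same row at 0.085. Same-numbered arrays shared slide and row for LV with PA, where all 4 pairs correlated above 0.1 (0.13 to 0.34), and for PV with SA, where 2 of 4 did (-0.15 to 0.29). No other pair of regions had every correlation above 0.1. No protein sequences were used here.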

Additional observations from a re-analysis of the deposited data

Results flagged for a closer look

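In 9 of 157 groups of 4 arrays in which a member was well above background throughout, 1 array stood apart from the other 3 by the Dixon criterion. Chance alone would give about 1 in 20 groups. Fgf1 was highest in SA replicate 1 (13.45), and the other SA arrays were at 13.22 to 13.25. Fgf18 was highest in LV replicate 1 (10.75 against 10.28 to 10.33) and lowest in SA replicate 1 (7.55 against 8.23 to 8.30). Fgfr1 was highest in LA replicate 1 (9.85 against 9.65 to 9.67), and Fgfr2 was lowest in SA replicate 3 (7.98 against 8.77 to 8.82). PV replicate 2 was highest for Igfbp3 (14.01 against 12.88 to 13.01) and lowest for Pdgfrb (11.28 against 11.61 to 11.64). Kdr was highest in SA replicate 2 (13.53 against 13.35 to 13.36) and Vegfb in PV replicate 1 (13.25 against 13.01 to 13.05).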

How the results depend on the processing

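Of the 88 calls of members in a comparison, 62 passed under every alternative, 26 were lost under at least 1, and none changed sign. The 36 members called by the F-test included 2, Fgf10 and Pdgfc, that were lost under 5 and 6 of 36 alternatives. The count for SA against LA, 11, became 22 with normexp background correction and 7 with the row of the slide as a block, where 4775 and 2268 of all genes passed in place of 2460 (median difference over all genes 0.18 with normexp), and it ranged down to 7 when single arrays were left out (LA replicate 1, LA replicate 3 or SA replicate 4). A fit of only the arrays compared gave 7 in place of 13 members for PV against LA (1264 in place of 2172 of all genes) and 1 in place of 4 for PV against SA (67 in place of 562). The 2 members called between LV and RV became 1 with quantile normalization, normexp, slide or row as a block (71, 107, 82 and 85 in place of 84 of all genes), or only the arrays compared (13), and ranged from 1 to 2 when single arrays were left out. From linear signals, 5 members were specific to LA, 10 to V and 4 to SA (5.19%, 10% and 3.1% of all genes), and with a pseudocount of 16, 9 were specific to V and 4 to SA (8.49% and 3.72%). Normexp moved 18 of the 88 called differences by over 1.5 times. In PA, Fgf3 went from -1.38 to -0.33, Pdgfb from -0.86 to -0.21, Fgf7 from -0.93 to -0.23, Fgf16 from -1.15 to -0.66 and Pdgfd from 1.58 to 0.46. In the ventricle, Pdgfc went from -1.11 to -0.34, Fgf9 from 3.65 to 1.27, Vegfd from 1.27 to 0.54, Fgf7 from 0.96 to 0.49, Fgf16 from 2.38 to 1.46, Igfbp2 from -1.44 to -0.93 and Fgfr2 from -1.96 to -1.30. In SA against LA, Igfbp2 went from -1.07 to -0.60 and Fgf16 from 1.38 to 0.89, in PV against LA Pdgfd from 1.66 to 0.60, in PV against SA Fgf16 from -1.22 to -0.66, and in LV against RV Fgf7 from -2.76 to -1.04 and Igfbp5 from -1.07 to -0.68. Of these 18, the PA calls of Fgf3, Pdgfb and Fgf7, Igfbp2 in SA against LA and Igfbp5 in LV against RV did not pass with normexp. A pseudocount of 16 moved 4 called differences as far (Pdgfb, Pdgfc and, in 2 comparisons, Pdgfd) and quantile normalization 1 (Pdgfa in PA, 0.49 to 0.76). The cause of these changes was not tested. With the replicate number as a block, 35 members passed the F-test, 32 the PA comparison, 28 the ventricular comparison, 11 SA against LA, 13 PV against LA, 4 PV against SA and 2 LV against RV, and of all 16089 genes 10160, 9415, 6336, 2390, 2097, 466 and 79. With the number as a block in only the PV and SA arrays, an alternative chosen after seeing the data, 0 members passed by limma (9 at an unadjusted p below 0.05). The replicate block over all arrays lost the calls of Fgf13 in SA against LA (adjusted p = 0.075) and Fgf1 in PV against LA (adjusted p = 0.058). Among same-numbered pairs of arrays, 21.8% correlated above 0.1 in their deviations, against 31.5% of pairs with other numbers. Signal limits many ligands: 15 of 20 FGF ligands tested were not well above background on every array, and 3 of 4 PDGF ligands.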
